A study of Mus musculus with 24 samples.

Results

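The erythroid lineage genes followed in lung RNA were Alas2, Slc4a1, Epb42, Bpgm, Klf1, Gata1 and Tal1. They form a list of names that was made with earlier results of these data known, so counts over it are a description. Every probe set that the platform annotation gives to one of these 7 genes alone was taken. This gave 12 probe sets, all on array set A, for 7 of the 18194 genes with such a probe set. Of the 12 probe sets, 8 passed a filter on low signal, and they belong to 5 of the 7 genes. Both probe sets of Epb42, the single probe set of Klf1 and 1 of the 3 probe sets of Slc4a1 lay under the filter.

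The samples were total RNA of mouse lung. Mice lacking interleukin 13 (IL-13 KO) and wild-type (WT) mice were each treated with HDM or PBS. HDM commonly stands for the allergen house dust mite, and PBS for phosphate-buffered saline, the solution without allergen. The 4 groups were IL-13 KO after HDM, IL-13 KO after PBS, wild type after HDM and wild type after PBS, with 3 samples each. Every sample was hybridised to a set A and a set B array, 24 arrays in all. The labels used here give no strain, age, sex, dose, route or schedule, and do not say that each sample is a separate animal. The p-values therefore measure the spread between these samples, which may be technical.

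Red cells are made in the bone marrow, and in mice also in the spleen, and they reach the lung in the blood. The transcription factors Gata1, Tal1 and Klf1 switch on the genes of haemoglobin, haem and the red cell membrane as precursors mature. Young red cells that have lost their nucleus, the reticulocytes, still carry RNA. Alas2 encodes the erythroid form of 5-aminolevulinate synthase, the first enzyme of haem synthesis. Slc4a1 encodes band 3, the anion exchanger of the red cell membrane, and Epb42 encodes protein 4.2, which binds band 3 to the membrane skeleton. Bpgm encodes bisphosphoglycerate mutase, which makes 2,3-bisphosphoglycerate, the small molecule that lowers the oxygen affinity of haemoglobin. Gata1 is also used by mast cells, eosinophils and megakaryocytes, and Tal1 also by endothelial cells, mast cells and megakaryocytes.

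Promoter sequences are shown for Alas2 and Bpgm, which were called lower after HDM in both genotypes on at least 1 probe set. Those of the factors Gata1, which was not called, and Tal1, which was called lower in wild type alone, are shown beside them. Each is the 250 bases before the gene's start from RefSeq on GRCm38.p6, written 5′ to 3′ on the gene's strand. Capitals mark GATAA, the core letters that GATA factors bind, and CACCC, letters that Klf1 binds, on either strand, so that TTATC and GGGTG are their reverse complements. For Tal1 the first of its entries is shown.
Alas2, chrX:150547167-150547416, plus strand: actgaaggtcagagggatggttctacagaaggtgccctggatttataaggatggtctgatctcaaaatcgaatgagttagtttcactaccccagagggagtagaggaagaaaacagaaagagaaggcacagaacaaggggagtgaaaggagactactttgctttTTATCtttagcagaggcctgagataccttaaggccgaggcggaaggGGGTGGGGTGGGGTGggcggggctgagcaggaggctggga
Bpgm, chr6:34476106-34476355, plus strand: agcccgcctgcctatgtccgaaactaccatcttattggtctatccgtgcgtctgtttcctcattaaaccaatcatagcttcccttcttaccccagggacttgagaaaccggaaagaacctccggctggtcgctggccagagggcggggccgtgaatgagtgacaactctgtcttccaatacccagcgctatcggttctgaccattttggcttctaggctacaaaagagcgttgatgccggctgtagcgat
Gata1, chrX:7967911-7968160, minus strand: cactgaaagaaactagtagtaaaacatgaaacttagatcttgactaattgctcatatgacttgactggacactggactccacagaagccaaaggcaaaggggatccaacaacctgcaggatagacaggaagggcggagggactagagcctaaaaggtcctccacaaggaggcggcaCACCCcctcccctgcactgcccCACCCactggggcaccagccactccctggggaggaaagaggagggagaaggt
Tal1, chr4:115056176-115056425, plus strand: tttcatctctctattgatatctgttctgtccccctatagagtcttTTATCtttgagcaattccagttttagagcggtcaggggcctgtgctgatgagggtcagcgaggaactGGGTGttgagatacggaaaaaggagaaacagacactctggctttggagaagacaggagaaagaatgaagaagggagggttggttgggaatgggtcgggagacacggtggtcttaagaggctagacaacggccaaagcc
The Alas2 window held GATAA on the other strand 86 bases before the start, and CACCC on the other strand in 3 adjoining copies that begin 40, 35 and 30 bases before it. The Bpgm window held neither motif. The Gata1 window held CACCC at 74 and 52 bases before the start and no GATAA. The Tal1 window held GATAA at 205 and CACCC at 138 bases before the start, both on the other strand, and its other entry held neither. Among 32851 promoter windows of the same length, 22.6% held GATAA and 52% held CACCC, so such letters are common. Of the other members, the Klf1 window held GATAA at 80 and CACCC at 114 bases before the start, and the Epb42 window held GATAA at 226. A match is a description of letters and not of binding. The 7 members lie on chromosomes X (Alas2, Gata1), 11 (Slc4a1), 2 (Epb42), 6 (Bpgm), 8 (Klf1) and 4 (Tal1).

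The deposited values were linear intensities, scaled by the authors so that the trimmed mean of every array was about 150. Array medians lay between 69.5 and 77.7 on set A. Il13 itself does not check the genotype labels, because it is not known here whether its probe set lies in the deleted part. Skeletal muscle markers summed to 455 to 6479 in wild type after HDM and 405 to 3152 in wild type after PBS, against at most 553 in any IL-13 KO sample. Wild-type HDM replicates 1 and 2 and wild-type PBS replicate 2 carried this muscle signal. On set A the actin 5' signal divided by the 3' signal, which drops as RNA degrades, was 0.464 to 0.656 in the KO HDM samples, 0.748 to 0.854 in the KO PBS samples, 0.695 to 0.832 in the wild-type HDM samples and 0.409 to 0.898 in the wild-type PBS samples. On set A its groups do not overlap between HDM and PBS in the KO. On set B they just overlap, at 0.428 to 0.612 in the KO HDM samples and 0.61 to 0.897 in the KO PBS samples. The part of this ratio in the KO results was not tested. For Gapdh on set A the same ratio overlapped in the KO. It was 1.04 to 1.16 in the HDM samples and 1.05 to 1.2 in the PBS samples.

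Alas2, the haem enzyme, was lower after HDM in both genotypes. In IL-13 KO lung the Alas2 signal was 395, 597 and 397 after HDM, against 1648, 1488 and 1296 after PBS. In wild-type lung it was 513, 514 and 544 after HDM, against 1382, 1472 and 1013 after PBS. Every HDM sample lay below every PBS sample of either genotype. The fitted log2 difference was -1.68 ± 0.17 in KO (SE, n = 3 against 3; limma, adjusted p = 2.2e-05), a ratio of 0.312. In wild type it was -1.27 ± 0.17 (adjusted p = 0.00024), a ratio of 0.414. Both calls were kept in all 20 alternatives run for each comparison, with log2 differences of -1.87 to -1.58 in KO and -1.43 to -1.11 in wild type. The mean signal was 463 ± 116 in KO after HDM and 1477 ± 177 in KO after PBS, the lowest and the highest group, and 524 ± 17.5 in wild type after HDM and 1289 ± 243 in wild type after PBS (SD, n = 3 each). The genotypes within a treatment overlapped and did not differ beyond their spread. In bulk lung, fewer cells of a type and less RNA per cell cannot be told apart, and this holds for every result here.

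**Figure D1:**
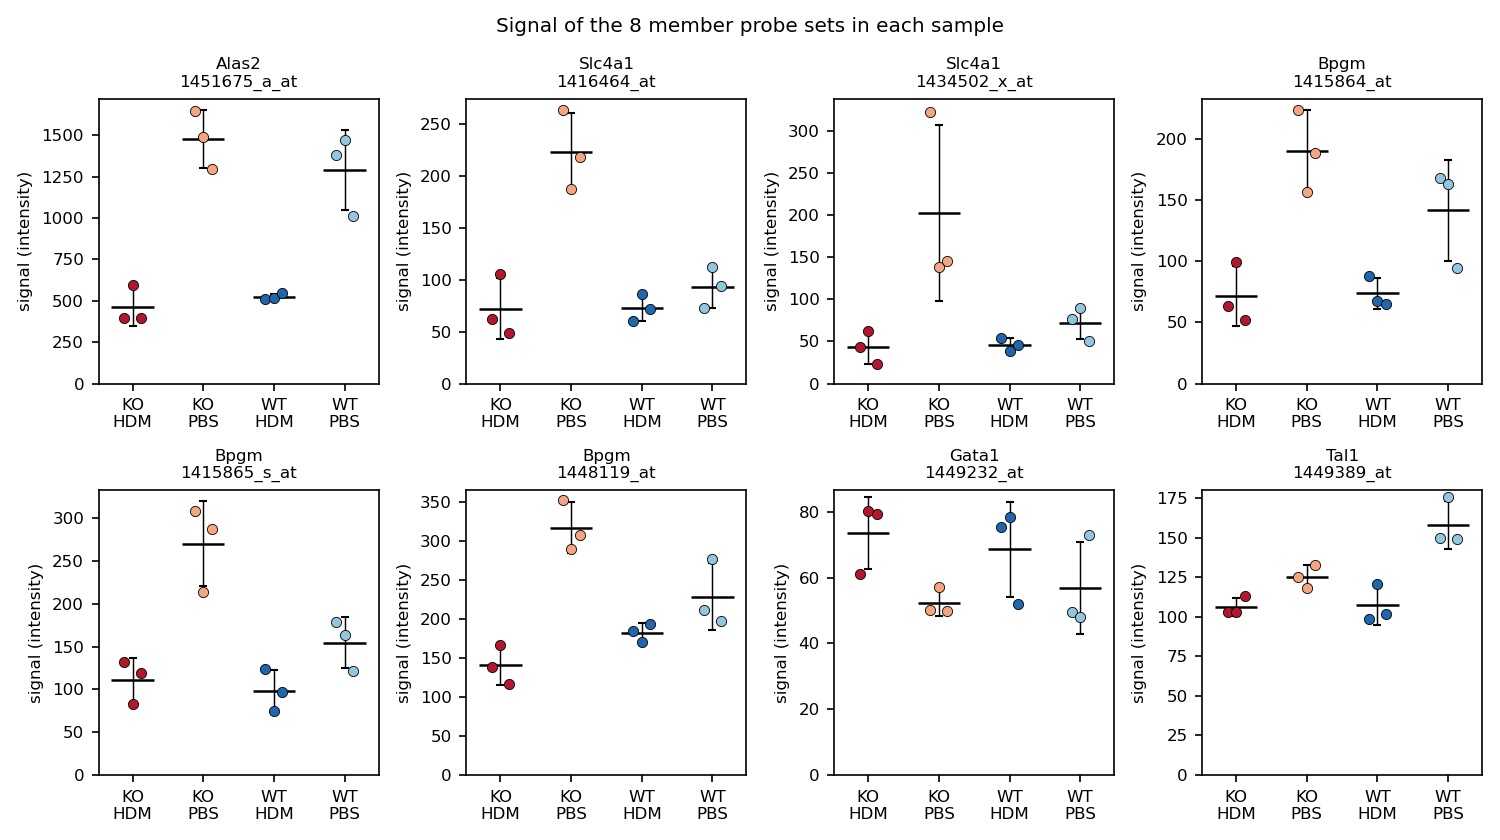
Deposited signal (linear intensity, axis from 0) of the 8 member probe sets that passed the filter, with 1 point per sample, a line at the group mean and bars of 1 SD (n = 3). The 6 probe sets of Alas2, Slc4a1 and Bpgm were all lower in KO after HDM than in KO after PBS, without overlap. So was Tal1, without a call, while Gata1 was higher.

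Slc4a1, the band 3 gene, was lower after HDM in the KO and had its highest signal in KO lung after PBS. The probe set 1416464_at had 62, 105 and 49.1 in KO after HDM, against 263, 187 and 218 in KO after PBS. In wild type it had 60.2, 86.1 and 72 after HDM, against 72.6, 112 and 93.5 after PBS. The 3 KO PBS samples stood above the other 9, which overlapped. The log2 difference after HDM was -1.59 ± 0.24 in KO (adjusted p = 0.00066) and -0.32 ± 0.24 in wild type (adjusted p = 0.52). A second probe set, 1434502_x_at, had 43.9, 62.3 and 23.1 in KO after HDM, against 323, 138 and 146 in KO after PBS, and 54.6, 39.2 and 45.2 in wild type after HDM, against 76.4, 89.4 and 50.7 in wild type after PBS. It too was highest in the KO PBS samples, with 323 in 1 of them. Its log2 difference was -2.04 ± 0.33 in KO (adjusted p = 0.0012) and -0.55 ± 0.33 in wild type (adjusted p = 0.4). The suffix _x_at marks a probe set whose probes can match other transcripts. The third, 1431743_a_at, ranged from 0.89 to 23.6 over the 12 samples, under the filter.

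Epb42, whose product binds band 3, had signals of 0.646 to 13.4 on 1417337_at and 4.71 to 10.3 on 1417338_at over the 12 samples. Both probe sets lay under the filter and the protein 4.2 gene was not tested with the rest. Fitted without the filter, 1417337_at gave a log2 difference after HDM of -0.67 ± 0.34 in KO and 0.01 ± 0.34 in wild type, with no call (adjusted p = 0.31 and 0.99). The other, 1417338_at, gave 0.27 ± 0.19 in KO and -0.26 ± 0.19 in wild type (adjusted p = 0.49 and 0.58). The range of Epb42 signals limits what could be seen here.

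Bpgm, the bisphosphoglycerate gene, was lower after HDM in the KO on all 3 of its probe sets. The probe set 1448119_at had 139, 167 and 117 in KO after HDM, against 353, 290 and 308 in KO after PBS. In wild type it had 184, 170 and 194 after HDM, against 212, 277 and 197 after PBS. The groups did not overlap in either genotype, but in wild type the nearest samples were 194 and 197. The log2 difference was -1.14 ± 0.16 in KO (adjusted p = 0.00032) and -0.30 ± 0.16 in wild type (adjusted p = 0.31).

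On 1415864_at Bpgm had 63.5, 99.1 and 51.7 in KO after HDM, against 224, 157 and 189 in KO after PBS, and 87.9, 67.8 and 65.4 in wild type after HDM, against 168, 163 and 94.2 in wild type after PBS. HDM samples lay below PBS samples in both genotypes. Here the log2 difference was -1.36 ± 0.24 in KO (adjusted p = 0.0024) and -0.85 ± 0.24 in wild type (adjusted p = 0.042). The wild-type call was lost in 11 of 20 alternatives, among them leaving out the samples with muscle signal, where the log2 difference was -0.88 (adjusted p = 0.24). It was also lost without KO HDM replicate 1, KO PBS replicate 3, wild-type HDM replicate 2 or 3, or wild-type PBS replicate 1 or 2 (adjusted p = 0.055, 0.056, 0.12, 0.14, 0.15 and 0.14). Over the 11 the log2 difference was -0.88 to -0.71. On 1415865_s_at the signals were 132, 82.6 and 119 in KO after HDM, against 309, 214 and 288 in KO after PBS, and 124, 74.6 and 96.8 in wild type after HDM, against 179, 164 and 121 in wild type after PBS. The log2 difference was -1.24 ± 0.22 in KO (adjusted p = 0.0021) and -0.63 ± 0.22 in wild type (adjusted p = 0.096). Probe sets of 1 gene share their target and sample, so the 3 are not independent measurements.

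None of the 3 factors was called after HDM in the KO. Klf1, the activator of adult globin genes, had signals of 15.7, 44.9 and 10.7 in KO after HDM, against 16.9, 23.2 and 11.5 in KO after PBS. In wild type Klf1 had 14.1, 11.7 and 36.1 after HDM, against 17.7, 15 and 43.4 after PBS. All groups overlapped. Klf1 was under the filter, and fitted without the filter its log2 difference was 0.21 ± 0.44 in KO and -0.23 ± 0.44 in wild type (adjusted p = 0.86 and 0.88).

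Gata1 had 61, 80.2 and 79.5 in KO after HDM, against 50.1, 57.2 and 49.9 in KO after PBS. In wild type it had 75.3, 78.6 and 52 after HDM, against 49.5, 47.9 and 73 after PBS. The KO groups did not overlap, with HDM above PBS, as in 14.6% of all probe sets, and the wild-type groups overlapped. The log2 difference was 0.43 ± 0.20 in KO (adjusted p = 0.21) and 0.25 ± 0.20 in wild type (adjusted p = 0.56), with no call. Of the other cells that use Gata1, mast cell markers summed to 1511 to 1799 in KO after HDM against 436 to 554 in the KO PBS samples, and 818 to 1160 in wild type after HDM against 403 to 599 in wild type after PBS. For eosinophils, 6 of 10 markers were on the arrays, and their sum was 1493 to 1910 in KO after HDM against 101 to 135 in the KO PBS samples, and 1990 to 2271 in wild type after HDM against 92.5 to 168 in wild type after PBS. Rnase2a, an eosinophil-associated ribonuclease, carried most of that sum, while the eosinophil receptor Siglecf averaged 37.1 in KO after HDM, 36 in KO after PBS, 30.8 in wild type after HDM and 28.4 in wild type after PBS. Eosinophil peroxidase, Epx, under the filter, averaged 35.2 in KO after HDM against 22.5 in KO after PBS, and 44.1 in wild type after HDM against 23.2 in wild type after PBS. The mast cell list had 10 of 10 markers on the arrays, and 7 were tested. Of the 7, 5 were called higher after HDM in KO and 4 in wild type, against 6.58% and 5.94% of all genes. Sums of megakaryocyte and platelet markers (12 of 14 on the arrays) overlapped between HDM and PBS in both genotypes. In KO they were 1416 to 1742 in the HDM samples and 1577 to 1669 in the PBS samples. In wild type they were 1388 to 1663 and 1635 to 1771. The sums hide single genes that changed. Of the 12, 1 was called lower and 1 higher in KO, and 3 lower and 1 higher in wild type. The shares over all genes were 5.97% lower and 6.58% higher in KO, and 5.93% and 5.94% in wild type. The part of these cells in the Gata1 signal was not tested.

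Tal1 had 103, 103 and 113 in KO after HDM, against 125, 118 and 133 in KO after PBS. In wild type it had 98.7, 121 and 102 after HDM, against 150, 176 and 149 after PBS. HDM samples lay below PBS samples in both genotypes, and the wild-type PBS samples were the highest. The log2 difference was -0.23 ± 0.13 in KO (adjusted p = 0.33) and -0.53 ± 0.13 in wild type (adjusted p = 0.02), so that Tal1 fell in wild type. That call was lost without wild-type HDM replicate 1 or 3 or wild-type PBS replicate 2 (adjusted p = 0.073, 0.075 and 0.086), when the wild-type groups were fitted alone (0.077), and without the samples with muscle signal (0.2). In these 5 settings the log2 difference was -0.53 to -0.46. Endothelial markers fell along with Tal1. Their sum over 15 of 15 markers was 10796 to 11457 in KO after HDM against 15127 to 17208 in the KO PBS samples, and 10290 to 10968 in wild type after HDM against 16131 to 17651 in wild type after PBS. Of the 15, 11 were called lower in KO and 14 in wild type, against 5.97% and 5.93% of all genes. The median log2 differences of the 15 were -0.61 and -0.68. Ramp2, Cldn5 and Eng had the highest mean signal among them. Their part in the Tal1 result was not tested.

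Counted together, 6 of the 8 tested member probe sets were called lower after HDM in KO and none higher, against 5.12% of all 31496 probe sets called lower and 4.92% called higher. In wild type 3 of 8 were called lower and none higher, against 4.57% lower and 4.28% higher over all probe sets. The median log2 difference of the 8 was -1.30 in KO and -0.54 in wild type. The median over all probe sets was 0.00 and -0.01. Bpgm and Slc4a1 enter the 8 with several probe sets each. By gene, with the brightest tested probe set of each, the median of 5 was -1.14 in KO and -0.32 in wild type. Groups were without overlap, HDM below PBS, in 7 of 8 in KO and 4 of 8 in wild type, against 15.7% and 12.6% of all probe sets. Without the samples with muscle signal, where 1 wild-type HDM sample remains and is assumed to vary like the other groups, there were 6 calls in KO and 1 in wild type, Alas2. With each gene taken by its brightest tested probe set, 3 of 5 genes were called lower in KO (Alas2, Slc4a1 and Bpgm) and 2 of 5 in wild type (Alas2 and Tal1), against 5.97% and 5.93% of 14477 genes.

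**Figure D2:**
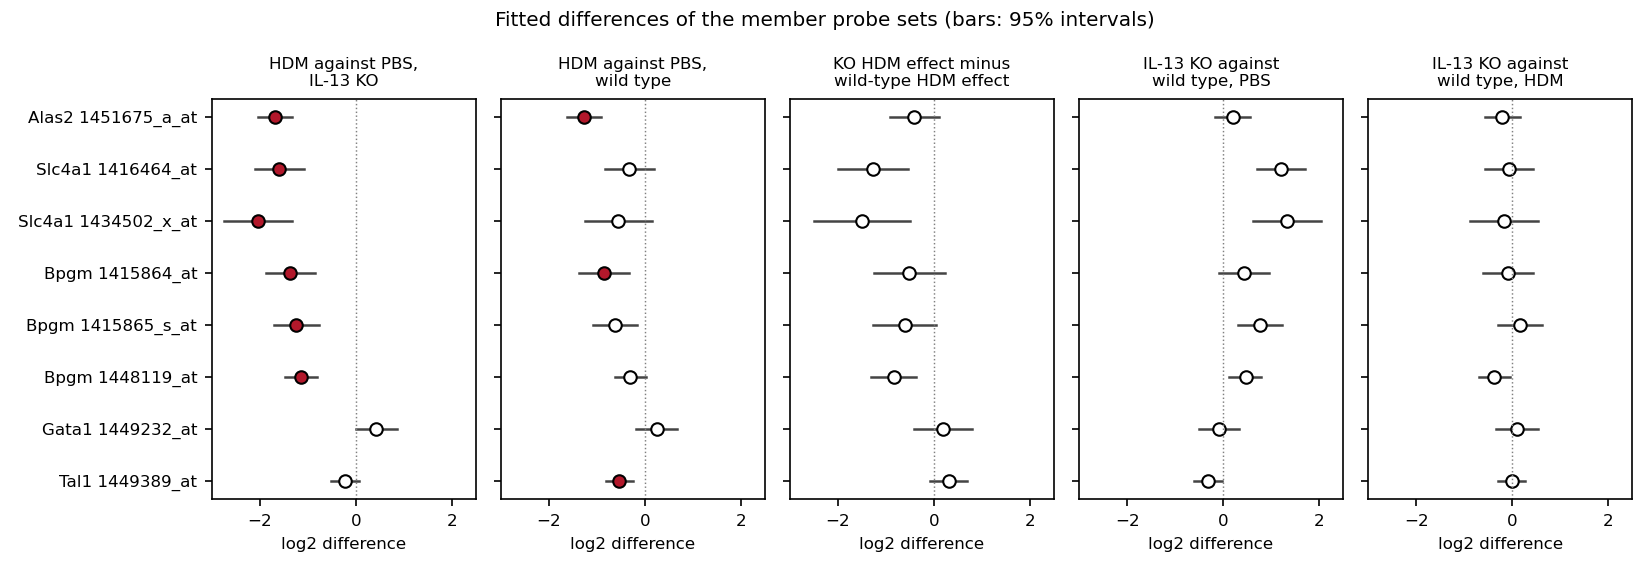
Fitted log2 differences (x axis) of the 8 member probe sets in the 5 comparisons, with 95% intervals as bars and filled points where the adjusted p was under 0.05. The 6 called probe sets in KO lie between -2.04 and -1.14, and no point is filled in the interaction or in either comparison of KO with wild type.

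Whether the HDM effect differed between the genotypes was tested as the KO effect minus the wild-type effect. No member passed this test, in which 0.0984% of all probe sets were called, and 3 of the 8 had an unadjusted p under 0.05, against 5.67% of all probe sets. These were both Slc4a1 probe sets, with -1.27 ± 0.34 (95% interval -1.99 to -0.55, limma adjusted p = 0.4) and -1.49 ± 0.47 (-2.49 to -0.49, adjusted p = 0.64), and Bpgm 1448119_at with -0.84 ± 0.22 (-1.31 to -0.37, adjusted p = 0.39). For Alas2 the difference was -0.41 ± 0.24, with an interval of -0.92 to 0.11. The other 2 Bpgm probe sets gave -0.51 and -0.61, with intervals of -1.25 to 0.23 and -1.27 to 0.05. Gata1 gave 0.18 (-0.42 to 0.79) and Tal1 0.31 (-0.09 to 0.70). The intervals of the 3 leave out 0 before adjustment, and those of the other 5 include it. The larger number of calls in KO is thus not shown to be a difference between genotypes.

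The genotypes were also compared within each treatment. After PBS no member was called, where 0.0476% of all probe sets were, and 5 of the 8 had an unadjusted p under 0.05, against 6.90% of all probe sets. Slc4a1 was the nearest, with a log2 difference of 1.21 ± 0.24 for KO against wild type on 1416464_at (unadjusted p = 0.00015, adjusted p = 0.14) and 1.33 ± 0.33 on 1434502_x_at (adjusted p = 0.34). The 3 KO samples were above the 3 wild-type samples on both probe sets, as they were on Bpgm 1415865_s_at (0.78 ± 0.22, adjusted p = 0.42) and 1448119_at (0.47 ± 0.16, adjusted p = 0.55). Groups without overlap, KO higher, were thus seen in 4 of 8, against 5.50% of all probe sets. Without KO HDM replicate 2 the adjusted p of Slc4a1 1416464_at was 0.0498, with the same log2 difference of 1.21, and this was its lowest value over 20 alternatives (highest 0.5). Alas2 differed by 0.21 ± 0.17 (-0.16 to 0.57) and Gata1 by -0.08 ± 0.20 (-0.51 to 0.34). Tal1 was lower in KO without overlap, by -0.32 ± 0.13 (adjusted p = 0.66), where 5.71% of all probe sets had such groups.

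After HDM no member was called between KO and wild type either, where 0.616% of all probe sets were. One probe set, Bpgm 1448119_at, had an unadjusted p under 0.05 by limma, with -0.37 ± 0.16 (adjusted p = 0.5), and KO below wild type without overlap, as in 7.29% of all probe sets. The others lay between -0.20 (Alas2) and 0.17 (Bpgm 1415865_s_at). For Slc4a1 1416464_at the difference was -0.06, with an interval of -0.57 to 0.44. The comparisons within HDM or PBS use the same samples as the comparisons of HDM with PBS, and are not separate evidence.

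**Figure D3:**
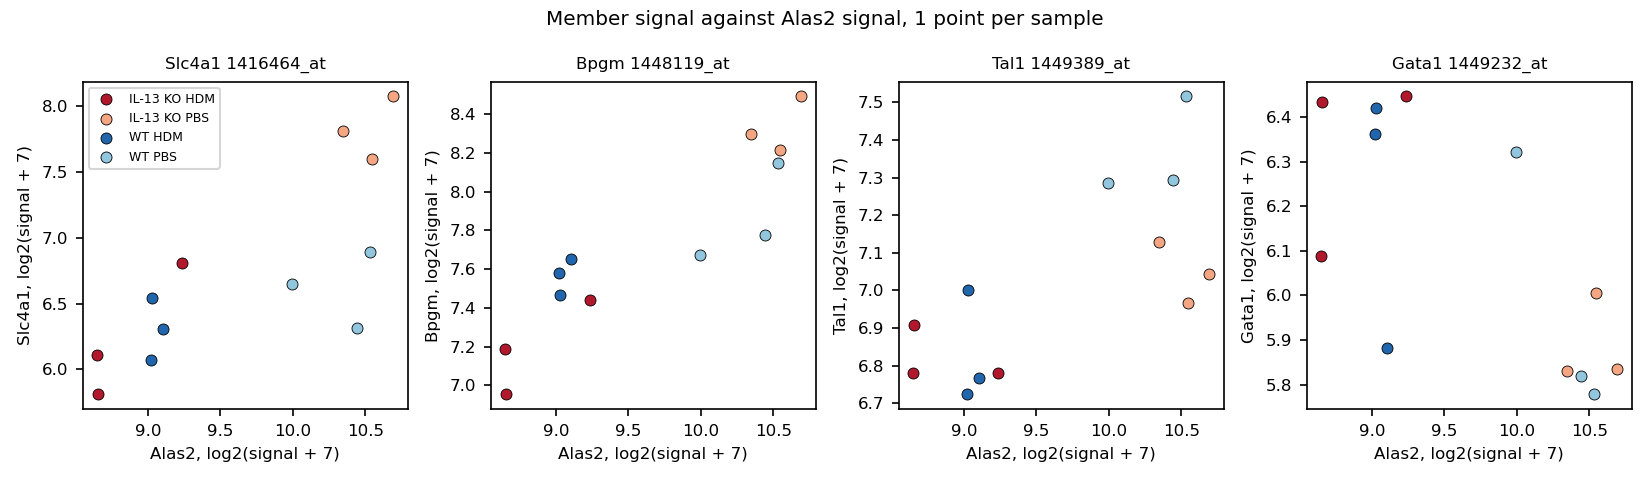
Signal of Slc4a1, Bpgm, Tal1 and Gata1 (y axis, 1 probe set each) against that of Alas2 (x axis), both as log2(signal + 7), with 1 point per sample coloured by group. At like Alas2 signals the KO PBS samples have more Slc4a1 (187 to 263) than the wild-type PBS samples (72.6 to 112).

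The plot against Alas2 shows how the members parted within a treatment. Among PBS samples Alas2 overlapped between genotypes, at 1296 to 1648 in KO and 1013 to 1472 in wild type, while Slc4a1 1416464_at did not, at 187 to 263 in KO and 72.6 to 112 in wild type. Among HDM samples Slc4a1, Tal1 and Gata1 overlapped between genotypes, and Bpgm 1448119_at did not, at 117 to 167 in KO and 170 to 194 in wild type. KO HDM replicate 2 had the highest Alas2 (597), Slc4a1 (105) and Bpgm 1448119_at (167) of its group, and the lowest Bpgm 1415865_s_at (82.6).

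Globin genes, the main transcripts of red cells, gave a mixed picture. The 4 probe sets annotated to several globin genes, 3 to alpha and 1 to beta globins, had signals of 3019 to 7122 in all samples, at or above the 99.6th percentile of their array. The highest signal on a set A array was 4884 to 7682. None of the 4 was called in any of the 5 comparisons. Their log2 differences after HDM were -0.26 to 0.30 in KO and -0.43 to -0.11 in wild type. The beta-globin probe set 1417184_s_at had 4808, 6178 and 5776 in KO after HDM, against 5073, 5514 and 3284 in KO after PBS, and 3501, 4992 and 6466 in wild type after HDM, against 5999, 4618 and 5161 in wild type after PBS. Its groups overlapped. Sftpc, a surfactant gene that is also near the top of set A, had its lowest signal in the same sample (3790 in KO PBS replicate 3) and its highest in the same sample (7102 in wild-type HDM replicate 3). Whether probe sets this bright can show a fall was not tested, so nothing is read from their lack of calls. Of the single-gene globin probe sets, Hbb-b2, a beta globin, had 80.9, 91.8 and 64.8 on 1427866_x_at in KO after HDM, against 302, 161 and 308 in KO after PBS, and 151, 84.4 and 62.6 in wild type after HDM, against 302, 207 and 196 in wild type after PBS. It fell by 1.57 ± 0.29 in KO and by 1.25 ± 0.29 in wild type (log2, adjusted p = 0.0031 and 0.015). Its other probe set, 1427865_at, went the other way, with 0.32 and 0.97, and was not called (adjusted p = 0.58 and 0.057). On it the HDM samples lay above the PBS samples in both genotypes. Such groups were seen in 14.6% of all probe sets in KO and 11.1% in wild type. Globin genes are near-identical copies, so no single gene can be read from these signals.

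To set the members in their pathway, 7 lists of erythroid genes were used, with 118 genes in all. For 100 of them a probe set of that gene alone was present, and 84 were tested. After HDM 16 were lower and 1 higher in KO, and 13 lower and 4 higher in wild type, where 5.97% of all tested genes were lower and 6.58% higher in KO, and 5.93% lower and 5.94% higher in wild type. The median log2 difference of the 84 was -0.13 in KO and -0.12 in wild type, against 0.01 and 0.00 over all genes. Without the members, 13 of 79 were lower and 1 higher in KO, and 11 lower and 4 higher in wild type. Most of the 84 did not pass the test, as is true of genes in general, though the share called lower was above that over all genes in both genotypes.

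Genes of haem synthesis and its transporters were lower in 4 of 14 and higher in 1 in KO after HDM, and lower in 3 of 14 in wild type. Over all genes 5.97% were lower and 6.58% higher in KO, and 5.93% lower in wild type. Slc25a37, mitoferrin 1, the mitochondrial iron importer of erythroid cells, had 160, 159 and 130 in KO after HDM, against 502, 331 and 388 in KO after PBS. In wild type it had 199, 158 and 139 after HDM, against 227, 298 and 248 after PBS. It fell by 1.39 ± 0.17 in KO and by 0.63 ± 0.17 in wild type (log2, adjusted p = 0.00016 and 0.036). Alas1, the housekeeping counterpart of Alas2, is used by all cells, and it was lower too, with 723, 608 and 591 in KO after HDM, against 1123, 1057 and 946 in KO after PBS. Its log2 difference was -0.70 ± 0.11 in KO and -0.94 ± 0.11 in wild type (adjusted p = 0.00084 and 6.3e-05). A dimmer Alas1 probe set gave -0.72 and -0.24 and was not called. Fech, ferrochelatase, which inserts iron into haem as the last step, fell by 0.72 ± 0.13 in KO (adjusted p = 0.0027) and had -0.44 ± 0.13 in wild type (adjusted p = 0.054). One of its other probe sets was also called lower in KO (-1.33), and 2 were not (-0.74 and 0.02). The gene called higher in KO was Tmem14c, a mitochondrial porphyrin transporter, with a log2 difference of 0.45. Its signal was 460 ± 40.9 in KO after HDM against 336 ± 40.5 in KO after PBS (SD, n = 3 each). In wild type it was much the same, at 455 ± 65.8 after HDM against 337 ± 29.5 after PBS, but without a call.

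Late erythroid maturation genes were lower after HDM in 5 of 12 in KO and in 1 of 12 in wild type. The shares lower over all genes were 5.97% and 5.93%. For the 12 genes of the list, the log2 difference was negative in 11 in each genotype. The medians were -0.49 in KO and -0.15 in wild type. The 5 were Mkrn1, Ube2l6, Xpo7, Trim10 and Fhdc1. In wild type Ube2l6, Xpo7 and Fhdc1 averaged 32.6, 310 and 209 after HDM, against 50.3, 414 and 312 after PBS, without a call. In KO Fhdc1 averaged 222 after HDM against 346 after PBS. None of the 12 was called in the test of the KO effect minus the wild-type effect. Ube2l6, an enzyme that attaches ISG15 and is also induced by interferon, had 28.5, 33.6 and 26.9 in KO after HDM, against 74.7, 64.7 and 79 in KO after PBS. Trim10, a protein of the TRIM family linked to terminal red cell maturation, had 77.3, 98.6 and 48.7 in KO after HDM, against 147, 141 and 122 in KO after PBS, and 72.9, 74.8 and 63.5 in wild type after HDM, against 57.3, 76.2 and 95.3 in wild type after PBS. As with Slc4a1, the KO PBS samples were the highest 3. Trim10 fell by 0.85 ± 0.22 in KO (log2, adjusted p = 0.023), and had -0.08 ± 0.22 in wild type (adjusted p = 0.9). The difference between these effects was -0.77 ± 0.31 (adjusted p = 0.83). Mkrn1, an E3 ubiquitin ligase with broad expression, fell by 1.04 ± 0.14 in KO and by 0.88 ± 0.14 in wild type. Of its 5 other probe sets, 2 were called lower in both genotypes, with -1.16 and -1.09 in KO and -0.56 and -0.64 in wild type, and 3 were not called. Xpo7, a nuclear export receptor, fell by 0.73 ± 0.14 in KO, and its 7 other probe sets had -0.30 to 0.34 and were not called.

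**Figure D4:**
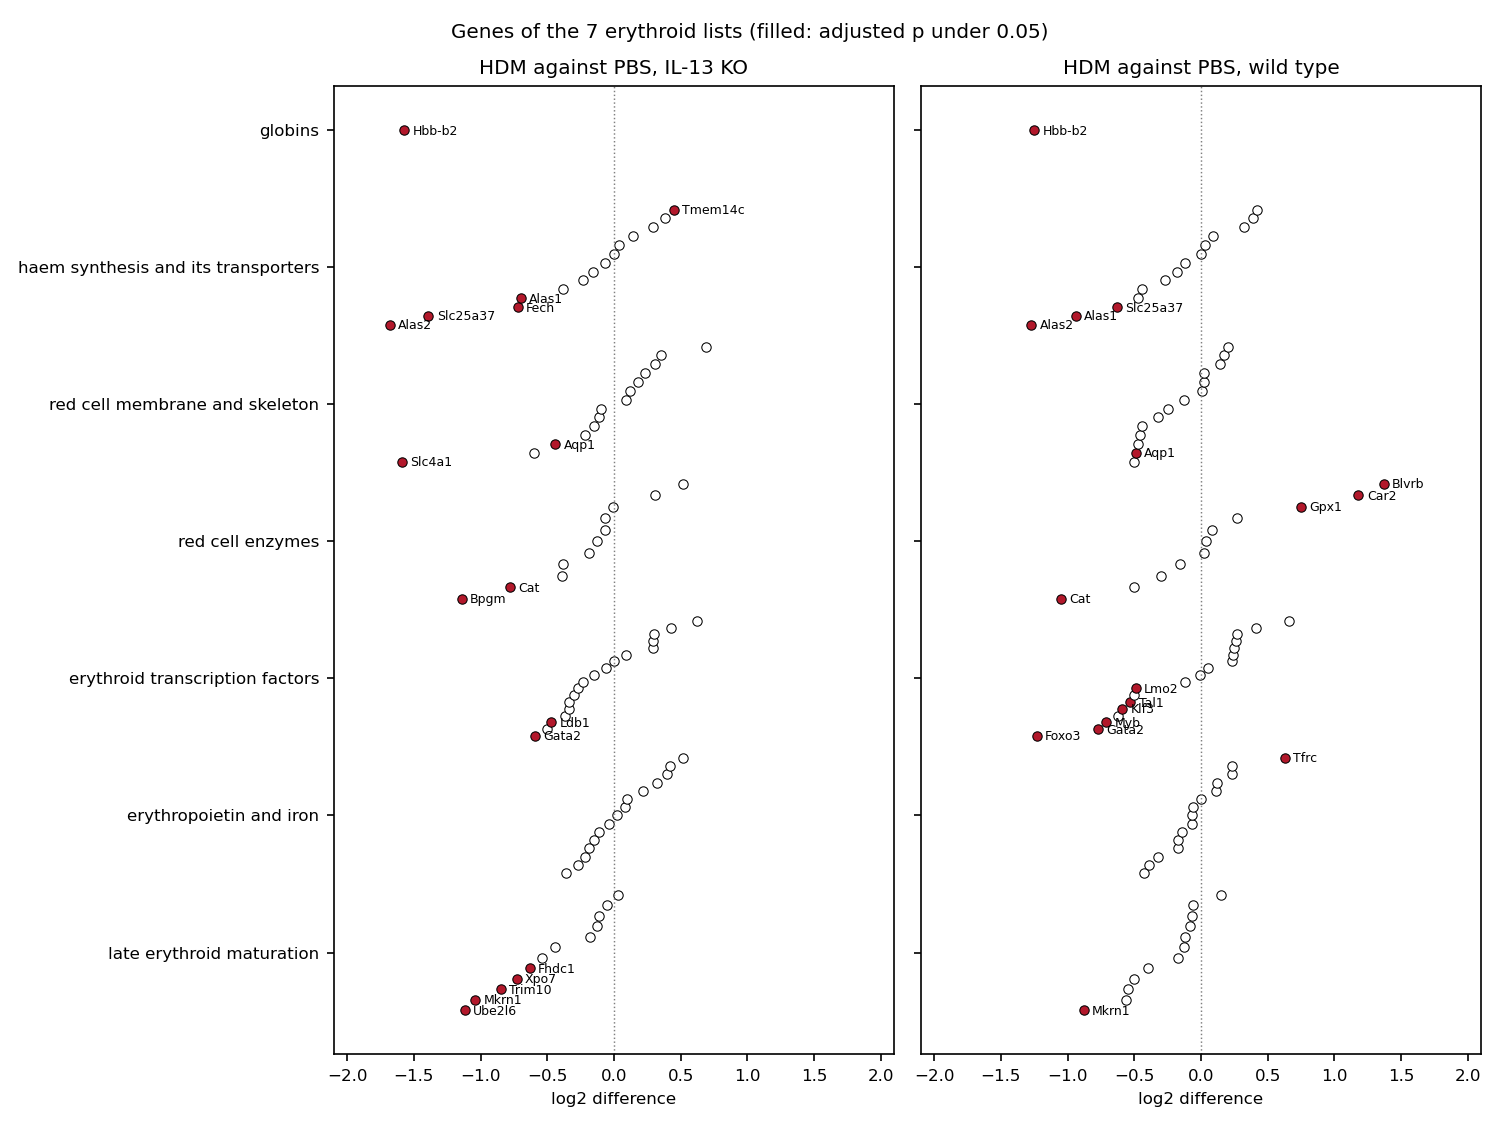
Log2 difference after HDM against PBS (x axis) for the tested genes of the 7 erythroid lists, in IL-13 KO (left) and wild type (right), with 1 point per gene, spread vertically by rank within its list. Filled points have an adjusted p under 0.05 and carry the gene's name. Filled points lie on the left in most lists, and 3 of the 4 in wild type that lie on the right are red cell enzymes.

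Membrane and skeleton genes were lower in 2 of 14 in KO, Slc4a1 and the water channel Aqp1, and in 1 of 14 in wild type, Aqp1. The shares lower over all genes were 5.97% in KO and 5.93% in wild type, and 1 of 14 is near the latter. Without the members 1 of 13 was lower in each genotype. Aqp1 is also a gene of lung endothelium, and it fell by 0.44 ± 0.10 in KO and by 0.49 ± 0.10 in wild type (log2, adjusted p = 0.013 and 0.0071). Of 11 red cell enzymes, 2 were lower in KO, Bpgm and Cat, the catalase gene. In wild type 1 was lower, Cat, and 3 were higher, where 5.93% of all genes were lower and 5.94% higher. The 3 were Blvrb (biliverdin reductase B, 1.37 ± 0.39), Car2 (carbonic anhydrase 2, 1.18 ± 0.14) and Gpx1 (glutathione peroxidase, 0.75 ± 0.12), all of which other cells use as well. Cat fell by 0.78 ± 0.18 in KO and by 1.05 ± 0.18 in wild type. Its other probe set gave -0.57 and -0.89 and was not called (adjusted p = 0.25 and 0.069).

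Erythroid transcription factors were lower in 2 of 18 in KO and 6 of 18 in wild type after HDM, with none higher. Over all genes 5.97% were lower in KO and 5.93% in wild type. Gata2, a GATA factor of early progenitors that endothelium also uses, fell by 0.59 ± 0.14 in KO and by 0.77 ± 0.14 in wild type (log2, adjusted p = 0.015 and 0.0026). Its other probe set had -0.85 and -0.86 and was not called. Ldb1, an adaptor of the Gata1 and Tal1 complex, fell by 0.47 ± 0.14 in KO (adjusted p = 0.046). In wild type Lmo2, which bridges Tal1 and GATA factors, fell by 0.49 ± 0.11 and Klf3, a repressor of the Klf1 family, by 0.59 ± 0.12 (adjusted p = 0.0098 and 0.0051). The 6 other Klf3 probe sets had -0.83 to 0.30 in wild type and were not called there, and 1 of them was called lower in KO (-1.32). Foxo3 fell by 1.23 ± 0.27 on its brightest probe set in wild type, while another gave 0.00. Of 15 genes of erythropoietin and iron, none was called in KO and 1 was called higher in wild type. The shares higher over all genes were 6.58% in KO and 5.94% in wild type, and 1 of 15 is near the latter. The smallest p values in KO were those of Tfr2 (0.52 ± 0.18, limma adjusted p = 0.081) and Kit (-0.36 ± 0.13, adjusted p = 0.1). In wild type Tfrc, the transferrin receptor of all dividing cells, was called higher (0.63 ± 0.13, adjusted p = 0.0069), while its other probe sets gave 0.50 and 0.09 and were not called. Cell cycle genes rose along with it, with sums of 2004 to 2134 in KO after HDM against 493 to 549 in the KO PBS samples, and 1546 to 1827 in wild type after HDM against 632 to 654 in wild type after PBS. Their part in the Tfrc result was not tested.

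Between genotypes no gene of the 84 was called after PBS, where 0.0345% of all genes were, though 19 had an unadjusted p under 0.05 (limma), against 7.74% of all genes. Of the 19, 14 were higher and 5 lower in KO. Among them were Trim10 (0.81 ± 0.22), Slc25a37 (0.63 ± 0.17), Mkrn1 (0.49 ± 0.14) and E2f2, a cell cycle factor of erythroblasts (0.52 ± 0.16), all higher in KO without overlap, with adjusted p of 0.41 to 0.48. Tfr2 (-0.51 ± 0.18) and Ireb2, an iron-responsive RNA-binding protein (-0.50 ± 0.20), were lower in KO without overlap (adjusted p = 0.57 and 0.64). After HDM 1 of 84 was called, Car2, against 0.884% of all genes. Car2 was also the single gene of the 84 called in the interaction, against 0.180% of all genes.

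The genes most like each member were named by the Pearson correlation of log2 signal over the 12 samples, as a description. The samples fall into HDM and PBS samples, so any gene that HDM changed in both genotypes correlates with Alas2. The 10 most like Alas2 were Ace, Tjp1, Myo1d, Mkrn1, Slc44a3, Mprip, Aldh2, Tspan13, Emp2 and Mta3, with r of 0.964 to 0.972. Ace is the angiotensin-converting enzyme, which lung endothelium makes, and Tjp1 is a tight junction protein. Of the 10, all but Mta3 were called lower after HDM in both genotypes, with log2 differences of -1.09 to -0.56 in KO and -0.84 to -0.37 in wild type. For Slc4a1 they were Rsad2, an interferon-induced gene, at r = 0.949, then Mrc2, Marchf2, Nfic and Slc50a1. All 5 were called lower after HDM in KO and not called in wild type. So was Slc4a1, and picking genes by likeness to it favours that pattern. For Bpgm they were Marchf2 (0.961), Mta3, Cldn10, Cryab and Mkrn1, so Bpgm shared Mkrn1 and Mta3 with Alas2 and Marchf2 with Slc4a1. Those of Tal1 were Ppil4 (0.933), AW549877, Errfi1, the endothelial gene Egfl7 (0.916) and Fgfbp1, all called lower after HDM in both genotypes. Those of Gata1 were Mrpl1 (0.941), Crx, Agbl5, Brcc3 and Naa40, of which Naa40 was called, higher in KO after HDM.

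Markers of other cell types were summed in the same way. Macrophage markers (10 of 10 on the arrays) summed to 5359 to 5972 in KO after HDM against 2437 to 2728 in the KO PBS samples, and 5418 to 6265 in wild type after HDM against 2272 to 2620 in wild type after PBS. Of 10 tested macrophage genes, 6 were called higher after HDM in KO and 7 in wild type, against 6.58% and 5.94% of all genes. Neutrophil markers (9 of 10) summed to 1105 to 1231 in KO after HDM against 1210 to 1279 in the KO PBS samples, and 905 to 1173 in wild type after HDM against 861 to 1344 in wild type after PBS. The neutrophil sums overlapped in both genotypes, with median log2 differences of 0.14 in KO and -0.10 in wild type over 6 tested genes. None of the 6 was called, but the brightest moved apart. In KO Ltf averaged 474 after HDM against 347 after PBS, S100a9 151 against 283 and S100a8 157 against 285. The KO groups of each did not overlap, as in 15.7% (lower) and 14.6% (higher) of all probe sets. In wild type they averaged 492 against 525, 118 against 187 and 108 against 149. Lung epithelial markers (10 of 10) summed to 41404 to 43052 in KO after HDM against 44165 to 51308 in the KO PBS samples, and 32389 to 44421 in wild type after HDM against 42393 to 47477 in wild type after PBS. The epithelial sums overlapped in wild type and not in KO. Ager, the brightest marker, averaged 15777 in KO after HDM against 21277 in KO after PBS, and 13093 against 17474 in wild type. Sftpc and Scgb1a1, the next brightest, averaged 5459 each in KO after HDM, against 5206 and 5401 after PBS. In wild type they averaged 5627 and 5188 after HDM, against 5704 and 5546 after PBS. Of 10 tested, 3 were called lower in KO and 4 in wild type, against 5.97% and 5.93% of all genes. None was called higher. Each array was scaled to a common mean, so a larger share of one cell type lowers the share of the others. The part of the macrophage and epithelial differences in the fall of Alas2, Slc4a1 and Bpgm was not tested.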

How the data were processed

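Lung RNA of 12 samples was measured on 24 arrays. The deposited files hold linear intensities for each probe set, which the authors had scaled to a trimmed mean of about 150 (2% from each end), as the values show. The labels used here name no software, and no detection calls were used, so the number of arrays limits the precision. Groups and replicate numbers came from the sample titles. The deposited intensities were converted here to log2(signal + pseudocount), with a pseudocount of 7 on set A and 11 on set B, the 10th percentile of each. This scale understates changes of low signals. Control probe sets and dim probe sets (mean log2 below the 30th percentile, signals of 32.0 on set A and 39.2 on set B) were left out, which left 15838 and 15658 probe sets. Names came from the platform annotation, where 20380 and 14661 probe sets had a single gene, 691 and 245 several and 1555 and 7605 none.

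Sets A and B were fitted separately with limma 3.58.1 in R 4.3.3, with the 4 groups in 1 model (8 residual degrees of freedom), an eBayes intensity trend, and p-values adjusted by Benjamini-Hochberg across the 31496 probe sets. Called means an adjusted p under 0.05. The fit was tested on simulated data. For list counts each of 14477 genes was taken by the brightest of its tested probe sets. Named were all members, up to 4 called genes per erythroid list and comparison (or the 2 with the smallest p), the 3 brightest genes of a marker list, and the genes most like a member (10 for Alas2, 5 for others). Tmem14c, Fhdc1 and the values of the other genotype beside a called one were chosen after their values were seen. The members and lists were chosen with earlier results of these data known. The labels do not say whether replicate numbers pair the samples, and the main fit used no pairing. Deviations from group means correlated at -0.131 to 0.183 over 18 same-numbered pairs, and at -0.261 to 0.233 over 36 others. With 3 samples per group such values cannot exclude pairing. Alternatives covered the pseudocount, the filter, quantile normalization, the trend, a replicate block, the samples in the fit and, added after seeing the data, 1 fit of both sets.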

Additional observations from a re-analysis of the deposited data

Results flagged for a closer look

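Among the erythroid lists, Car2, which encodes carbonic anhydrase 2 of red cells and of many other cells, differed between the genotypes in its HDM effect by the interaction test. Its signal was 530, 742 and 637 in KO after HDM, against 774, 700 and 688 in KO after PBS, and 1268, 1387 and 1459 in wild type after HDM, against 693, 612 and 514 in wild type after PBS. The KO effect minus the wild-type effect was -1.37 ± 0.20 (log2, SE; limma, adjusted p = 0.011). After HDM it was lower in KO than in wild type by -1.11 ± 0.14 (adjusted p = 0.001). The interaction call was lost when the samples with muscle signal were left out.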

How the results depend on the processing

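Over the alternatives, 792 member differences were recomputed. Of these 773 kept their side of the threshold, 16 lost a call and 3 gained one. In 14 the sign turned with no call in either setting, at a size of at most 0.25 in the reported fit, and they are counted among the 773. All 6 KO calls after HDM and both of Alas2 held in the 20 alternatives each. The 16 lost calls were Bpgm 1415864_at (11) and Tal1 (5) in wild type. The number of member probe sets called in wild type after HDM was 1 when the groups were fitted alone or the samples with muscle signal were left out, and 1 to 3 without 1 replicate. With both settings all probe sets called in wild type numbered 1724 and 1401. Without the samples with muscle signal the interaction had 14 calls over all probe sets and 0 among the erythroid lists, and KO against wild type after HDM had 100. Leaving out 1 replicate gave 1906 to 3298 calls over all probe sets for the HDM effect in KO, 1703 to 2749 for that in wild type, 17 to 31 in the interaction, 11 to 26 between genotypes after PBS and 102 to 214 after HDM. Called erythroid list genes numbered 11 to 18 in KO after HDM, 11 without KO PBS replicate 2. After PBS 0 to 1 member probe set and 0 to 1 list gene were called between genotypes, the 1 being Slc4a1 without KO HDM replicate 2. With the replicate number as a replicate block, Bpgm 1415865_s_at gained a call in wild type after HDM (-0.63, adjusted p = 0.037), so that 4 member probe sets were called, and no other member call changed. It also gained one without wild-type HDM replicate 1 (-0.80, adjusted p = 0.0498). Of 12 samples, 4 correlated best with a sample of their own number. The causes of these changes were not tested, except that fewer samples entered the fits that left some out. Fitting the groups alone has no counterpart for the interaction, which needs all 4. Low signals limit Epb42 and Klf1.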
